A study of Mus musculus with 4 samples.

Results

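The 38 genes described here mark ependymal cells or build and run cilia: 6 regulators of ciliary gene programmes, 22 components of the motile axoneme, 7 further markers of ependymal or ciliated cells, and 3 genes of intraflagellar transport and the ciliary membrane. They were taken by exact gene name from the deposited table, in which all 38 were found among 42458 rows. The samples were 4 libraries, each made from 50 cells of the spinal cord of 1 C57BL6 mouse that carried tdTomato after AAV2-CAG-tdT had been injected into a brain ventricle. A C57BL6 preparation that served as the negative control of the sort was not analysed here. The mice form 1 group with no other genotype, treatment or time, the CAG promoter is active in many cell types, and no age of the animals is given in these sources. The sort aimed at neurons in contact with the cerebrospinal fluid (CSF-cNs), which sit beside ependymal cells at the central canal, and the series title names ependymal cell proliferation. With 1 group, the data give each gene's level and its spread over mice, and no comparison between conditions.

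Ependymal cells line the central canal and the brain ventricles and carry motile cilia that move cerebrospinal fluid. A motile cilium is built on an axoneme of microtubule doublets with dynein arms, radial spokes and a central apparatus, and its genes are switched on by the forkhead factor FOXJ1 and by RFX factors. Intraflagellar transport carries cargo along every kind of cilium, including the single primary cilium that many other cell types have, and CSF-cNs themselves bear a cilium in the fluid. A list of these genes therefore holds both genes of motile cilia and genes shared by most ciliated cells.

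RFX factors bind a sequence called the X-box, so the promoters were searched for it and for the forkhead core. A RefSeq promoter window on GRCm38.p6 (250 bases before to 50 bases after a start site) was given for 32 of the 38 genes. The X-box, here GTNNCC and GNAAC with any 3 bases between them, on either strand, was found in the windows of 7 of these 32 genes (21.9%; Ccno, Cfap44, Enkur, Hydin, Pifo, Spag16 and Tekt4), against 2.49% of 27025 genes with such a window. The forkhead letters TGTTTAC on either strand were found in 2 of 32 (6.25%; Ak7 and Cfap43), against 4.05% of all genes, and no gene held both motifs. A match describes the letters and is not a measured binding site. The 250 bases before the start site are printed for 4 of the genes with an X-box match, of which Hydin, Pifo and Spag16 had their highest level in mouse 4 and Cfap44 in mouse 3, and for Ccdc153, a common ependymal marker with nearly all of its counts in mouse 4. Capitals mark the X-box match, and the sequences run 5′ to 3′ on the strand of the gene.
Spag16, chr1:69826720-69826969, plus strand: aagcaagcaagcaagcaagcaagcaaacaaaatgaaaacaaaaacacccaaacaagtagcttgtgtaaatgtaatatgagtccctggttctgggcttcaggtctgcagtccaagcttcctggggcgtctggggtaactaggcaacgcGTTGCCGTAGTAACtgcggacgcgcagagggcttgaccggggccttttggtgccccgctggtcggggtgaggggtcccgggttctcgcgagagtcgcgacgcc
Hydin, chr8:110266727-110266976, plus strand: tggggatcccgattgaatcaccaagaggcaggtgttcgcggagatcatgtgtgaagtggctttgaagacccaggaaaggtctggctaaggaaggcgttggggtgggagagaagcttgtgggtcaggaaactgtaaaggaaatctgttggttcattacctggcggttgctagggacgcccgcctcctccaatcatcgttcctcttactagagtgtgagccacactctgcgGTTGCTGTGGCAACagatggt
Cfap44, chr16:44394549-44394798, plus strand: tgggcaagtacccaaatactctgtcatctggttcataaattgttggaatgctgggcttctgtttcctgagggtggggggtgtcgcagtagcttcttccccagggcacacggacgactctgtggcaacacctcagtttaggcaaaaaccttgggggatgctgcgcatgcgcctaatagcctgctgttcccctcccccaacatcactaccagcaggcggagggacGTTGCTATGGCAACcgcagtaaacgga
Pifo, chr3:106001498-106001747, minus strand: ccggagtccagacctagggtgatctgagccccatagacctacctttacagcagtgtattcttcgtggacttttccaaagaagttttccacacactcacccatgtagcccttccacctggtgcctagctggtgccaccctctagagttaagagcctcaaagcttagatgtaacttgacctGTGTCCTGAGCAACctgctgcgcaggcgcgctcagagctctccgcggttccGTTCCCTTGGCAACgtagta
Ccdc153, chr9:44240427-44240676, plus strand: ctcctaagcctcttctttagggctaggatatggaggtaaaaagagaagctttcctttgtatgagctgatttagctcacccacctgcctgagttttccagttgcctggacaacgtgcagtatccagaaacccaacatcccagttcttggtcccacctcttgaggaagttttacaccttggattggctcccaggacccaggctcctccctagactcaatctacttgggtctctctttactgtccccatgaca
In Spag16 the match began 103 bases before the start site, in Hydin 21, in Cfap44 27, and in Pifo 71 and 20. In Hydin and Cfap44 the capitals match on the opposite strand, so they show the reverse complement of the motif. The window of Ccdc153 held no match to either motif.

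The libraries held 83007030 to 115479640 counts each, and values in lists of 4 follow mice 1, 2, 3 and 4. The tdTomato row had 5, 58, 13533 and 153379 counts, so the libraries of mice 1 and 2 went against their label as tdTomato-positive cells. Levels are CPM, the counts of a gene scaled to the library total with TMM factors, and 3 counts, the limit that a count of 0 allows, corresponded to 0.0278, 0.0321, 0.0348 and 0.0334 CPM. In bulk libraries such as these, fewer cells of a type and less RNA per cell cannot be told apart. Microglial markers summed to 52421, 57810, 34008 and 48996 CPM, oligodendrocyte markers to 15065, 238, 19260 and 459 CPM, and CSF-cN markers to 20.3, 12.9, 941 and 846 CPM. Astrocyte markers summed to 953, 133, 901 and 284 CPM and pan-neuronal markers to 133, 103, 1062 and 414 CPM. The astrocyte sum lay mostly in Aldoc (835, 11.6, 846 and 118 CPM) and Slc1a3 (115, 122, 52.1 and 155 CPM). Of 9 choroid plexus markers, 8 had no count in any library, among them Ttr, and only Prlr was present (0, 0, 3.18 and 0 CPM).

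Most genes of motile cilia were present in mouse 4, partly present in mouse 3 and nearly without counts in mice 1 and 2. Of the 38 genes, 8, 8, 20 and 31 had more than 3 counts in mice 1, 2, 3 and 4, and 28, 17, 16 and 3 had no count. Of all tested genes, 76.9%, 75.8%, 87.2% and 81.6% had more than 3 counts in these libraries. Tested genes are the 18522 with at least 10 counts in total, a filter not put on the 38. In mouse 4 the share of the list was near that of all tested genes, and in mice 1, 2 and 3 it was lower. A level of at least 1 CPM was reached by 6, 6, 17 and 29 genes, and a level of at least 10 CPM by 3, 2, 3 and 8, where 46.8%, 45.7%, 49.5% and 47.6% of all tested genes reached 10 CPM. The 8 genes at 10 CPM or more in mouse 4 were Tppp3, Rfx3, Ccdc153, Rsph1, Mia, Fam183b, Rarres2 and Spag16. No gene of the list reached 10 CPM in all 4 libraries, against 36.5% of all tested genes. The 12 genes fixed as ependymal cell markers (Foxj1, Ccdc153, Tmem212, Rarres2, Dynlrb2, Tekt1, Tekt4, Hydin, Enkur, Mia, Fam183b and Dnah12) had more than 3 counts in 0, 2, 7 and 12 cases. The 22 axonemal genes summed to 6.76, 3.08, 26.3 and 101 CPM.

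**Figure D1:**
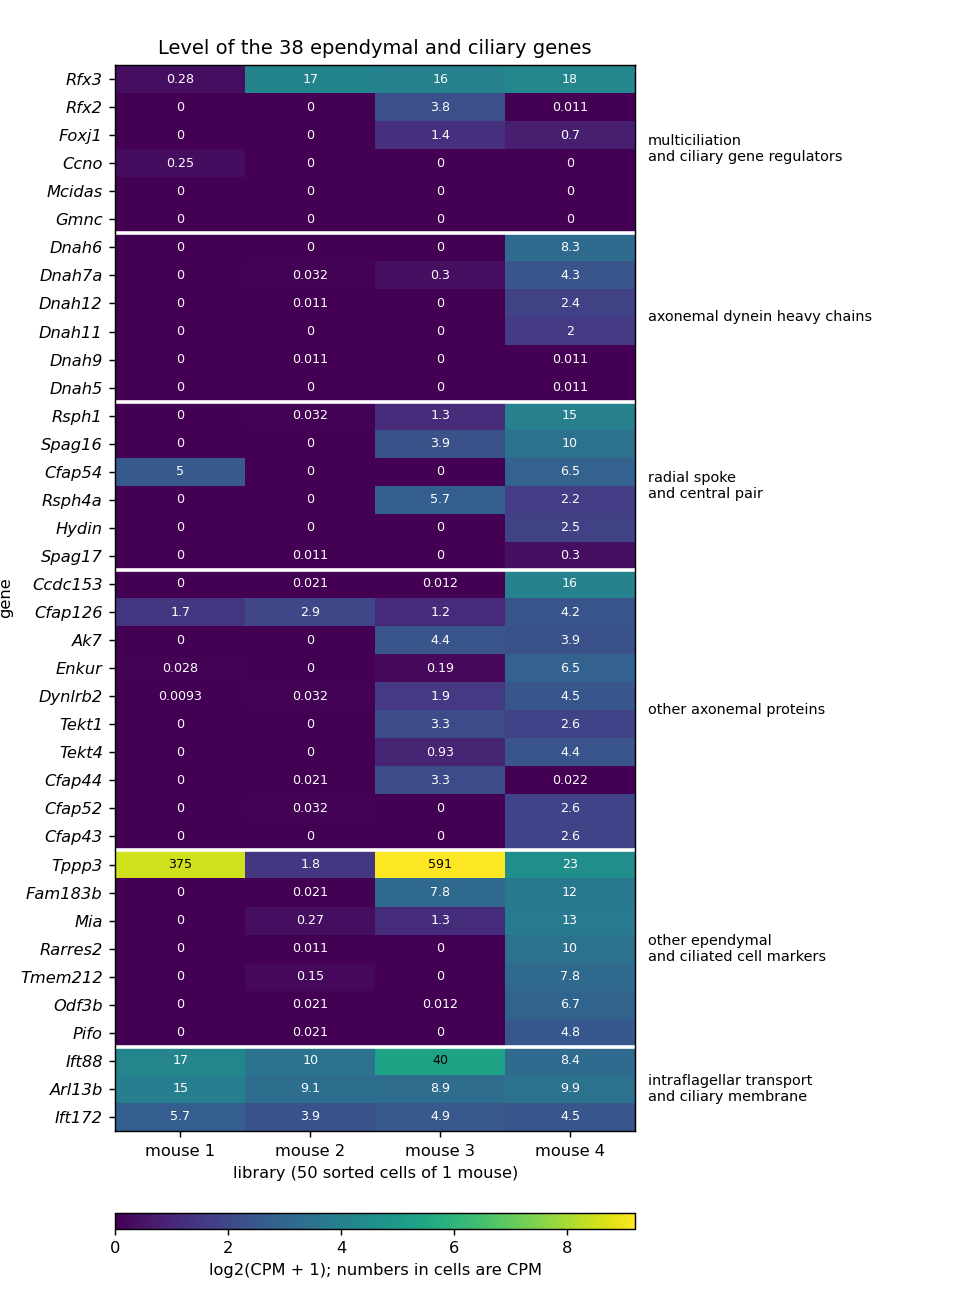
Level of each of the 38 genes (rows, grouped by role) in the library of each mouse (columns). Colour is log2(CPM + 1) and the number in each cell is the CPM; the axonemal genes have most of their signal in mouse 4, Tppp3 is highest in mice 1 and 3, and Ift88, Ift172 and Arl13b are present in all 4 libraries.

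Of the 34 genes with at least 10 counts in total, 11 had more than 3 counts in mouse 4 alone and 11 in mice 3 and 4 alone. Among all 18522 genes with at least 10 counts, 3.44% had more than 3 counts in mouse 4 alone and 4.89% in mice 3 and 4 alone. A further 2 genes, Cfap44 and Rfx2, passed 3 counts in mouse 3 alone (6.09% of all tested genes). The 6 genes above 3 counts in every library were Ift88, Ift172, Arl13b, Rfx3, Cfap126 and Tppp3, and 62.6% of all tested genes shared that pattern. Mouse 4 held the highest level of 23 of the 34 genes, mouse 3 of 8, mouse 1 of 3 and mouse 2 of 0, where the shares of all tested genes were 23.2%, 29.5%, 21.7% and 25.5%. The 34 genes include those that reached 10 counts through a single library, so these counts describe the list and test nothing.

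**Figure D2:**
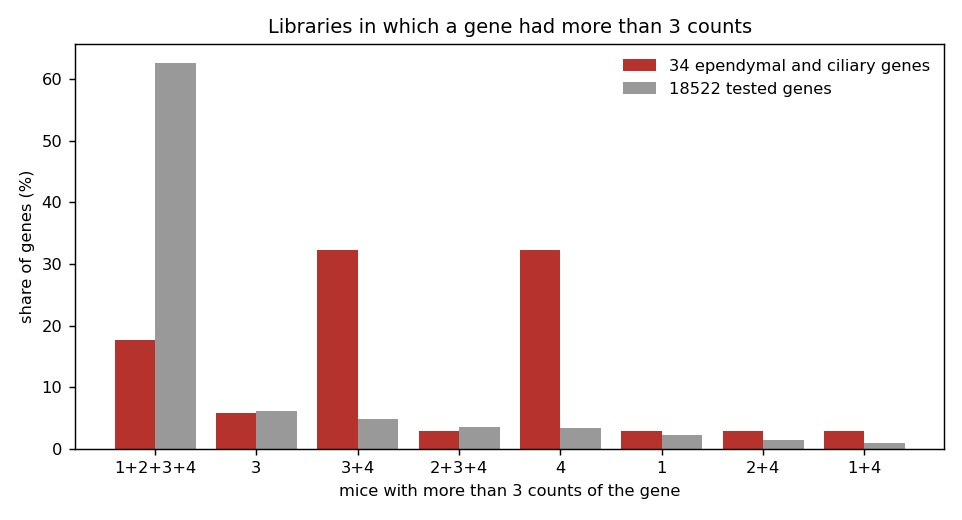
Share of genes (vertical axis, percent) by the set of mice in which a gene had more than 3 counts (horizontal axis), for the 34 ependymal and ciliary genes and for all 18522 tested genes. The sets shown are those held by at least 1 of the 34 genes; the sets of mouse 4 alone and of mice 3 and 4 hold 11 of the 34 genes each.

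The regulators that start multiciliation were absent or low. Mcidas and Gmnc, which code for the geminin-family proteins that begin multiciliated cell differentiation, had no count in any library. Ccno, the cyclin O gene needed for centriole amplification, had 27 counts in mouse 1 (0.250 CPM) and none in the other mice. Foxj1 had 0, 0, 124 and 63 counts, equal to 0, 0, 1.44 and 0.702 CPM. The mean was 0.535 ± 0.687 CPM (SD, n = 4). The runs of a library gave 62 and 62 counts of Foxj1 in mouse 3 and 35 and 28 in mouse 4, so both runs of both libraries held it. Rfx2 had counts almost only in mouse 3 (0, 0, 328 and 1 counts, or 3.80 CPM in mouse 3). Rfx3, a factor also used in non-motile ciliated cells, was at 0.278, 16.8, 15.6 and 18.1 CPM, a mean of 12.7 ± 8.33 CPM, with mouse 1 far below the other 3 libraries. The libraries with Rfx3 thus included mouse 2, in which Foxj1 had no count.

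The axonemal dynein heavy chains, the motors of ciliary beating, had nearly all of their counts in mouse 4. The inner arm gene Dnah6 had 0, 0, 0 and 749 counts (8.35 CPM in mouse 4), Dnah12 had 0, 1, 0 and 217 counts, and Dnah7a had 0, 3, 26 and 390 counts. Of the outer arm genes, Dnah11 had 0, 0, 0 and 179 counts (1.99 CPM in mouse 4). Dnah5 and Dnah9, the outer arm heavy chains of most motile cilia, had 1 and 2 counts over all libraries, so they were not detected at this depth. Dnah7a is uncertain because Dnah7b (4, 0, 0 and 224 counts) and Dnah7c (14, 1, 0 and 503 counts) are close copies between which reads could be split. Summed over the 6 genes, the level was 0, 0.0535, 0.301 and 17.1 CPM.

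All 6 genes of the radial spokes and the central apparatus had more than 3 counts in mouse 4, and 3 of them did in mouse 3. The spoke head gene Rsph1 was at 0, 0.0321, 1.28 and 15.1 CPM, with a mean over the 4 mice of 4.10 ± 7.34 CPM (SD). Its partner in the spoke head, Rsph4a, was higher in mouse 3 than in mouse 4 (0, 0, 5.69 and 2.15 CPM). Spag16 of the central apparatus was at 0, 0, 3.87 and 10.1 CPM. Hydin, whose protein forms a projection of the central pair, had its 228 counts in mouse 4 alone (2.54 CPM), and Spag17 had 27 of its 28 counts there. Exons of Spag17 share 9.66% of their length with Wdr3 on the other strand, which had 3552, 6166, 2935 and 2266 counts. Cfap54 was the one gene of this group found in mouse 1 as well (5.01, 0, 0 and 6.53 CPM).

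The remaining axonemal genes showed the same libraries with different orders. Ccdc153, a coiled-coil gene widely used to mark ependymal cells, had 0, 2, 1 and 1421 counts, or 15.8 CPM in mouse 4. Enkur (0.0278, 0, 0.185 and 6.51 CPM) and Dynlrb2, a dynein light chain gene (0.00926, 0.0321, 1.87 and 4.49 CPM), were also highest in mouse 4. The tektin genes, which code for filaments inside the doublets, differed: Tekt1 was at 0, 0, 3.32 and 2.63 CPM and Tekt4 at 0, 0, 0.927 and 4.36 CPM. The adenylate kinase gene Ak7 was close in both libraries (4.37 and 3.90 CPM in mice 3 and 4, with no count in mice 1 and 2). Cfap43 and Cfap44, whose proteins work together in the axoneme, were not found together: Cfap43 had 0, 0, 0 and 235 counts and Cfap44 had 0, 2, 281 and 2 counts. Cfap52 had 0, 3, 0 and 236 counts. Cfap126, a gene of the basal body region, was the exception, with a level in every library (1.71, 2.88, 1.19 and 4.25 CPM, mean 2.51 ± 1.36 CPM).

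Of the further ependymal markers, all but Tppp3 were highest in mouse 4. Fam183b was at 0, 0.0214, 7.79 and 12.2 CPM, and Mia at 0, 0.268, 1.32 and 12.5 CPM. Rarres2, the chemerin gene, had 0, 1, 0 and 918 counts (10.2 CPM in mouse 4). Lrrc61 shares 33.6% of the exonic length of Rarres2 on the other strand and had 1205, 1788, 726 and 203 counts. The part of Lrrc61 in the counts of Rarres2 was not tested. Tmem212 had 0, 14, 0 and 700 counts, Odf3b 0, 2, 1 and 604 counts, and Pifo, a gene of ciliary disassembly, 0, 2, 0 and 429 counts. Exons of Mia share 41.2% of their length with Gm21983 on the same strand, which was not analysed here.

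Tppp3, a tubulin polymerization gene, did not share this pattern. It had 40509, 172, 50974 and 2020 counts, equal to 375, 1.84, 591 and 22.5 CPM. The mean was 248 ± 286 CPM (SD, n = 4). Its high libraries were those of mice 1 and 3, as for the oligodendrocyte markers (15065, 238, 19260 and 459 CPM summed), and their part in the level of Tppp3 was not tested. In mouse 1, where Tppp3 was high, 0 of the 12 fixed ependymal markers had more than 3 counts.

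Genes of intraflagellar transport and the ciliary membrane were present in all 4 libraries. Ift172, a core transport gene, was at 5.72, 3.95, 4.93 and 4.46 CPM, a mean of 4.76 ± 0.754 CPM, which is the smallest spread relative to the mean among the 38 genes. Arl13b, which codes for a small GTPase of the ciliary membrane, was at 14.9, 9.10, 8.86 and 9.91 CPM (mean 10.7 ± 2.83 CPM). Ift88 was at 17.1, 10.5, 40.0 and 8.40 CPM (mean 19.0 ± 14.5 CPM), with mouse 3 above the others. None of these 3 genes was highest in mouse 4.

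**Figure D3:**
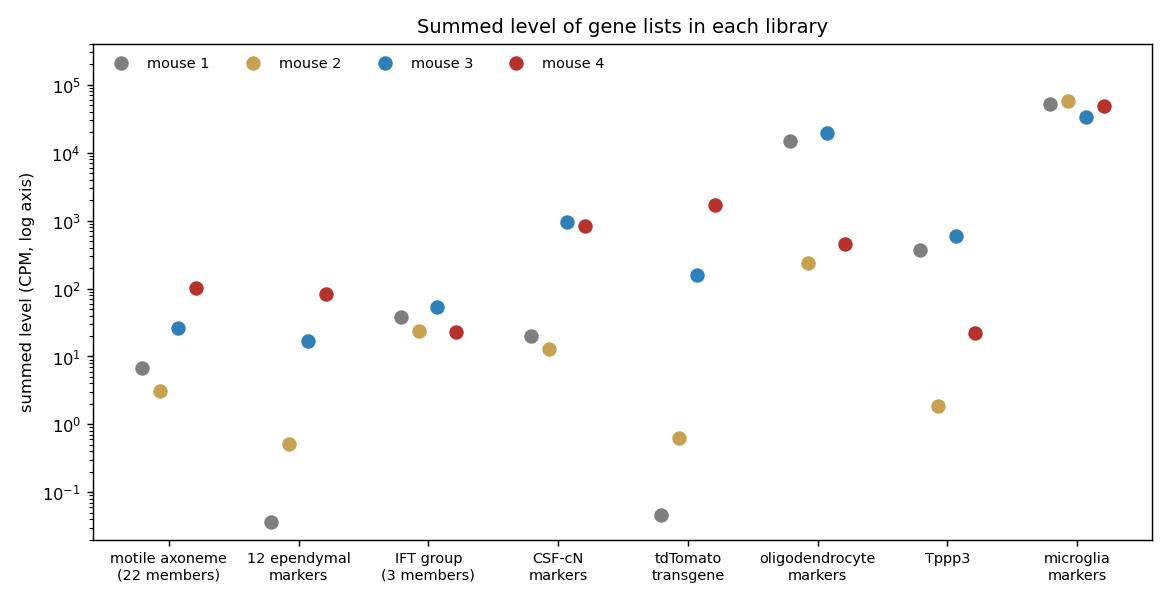
Summed level of gene lists (vertical axis, CPM on a log axis) in each of the 4 libraries (colours); Tppp3 and the tdTomato row are single genes. The 12 ependymal markers sum to 0.0370, 0.514, 16.9 and 82.2 CPM, while the intraflagellar transport group sums to 37.7, 23.5, 53.8 and 22.8 CPM.

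Mice 3 and 4 were set side by side because nearly all counts of the motile cilium genes lay there. Of the genes above 3 counts, 18 were shared, which is 90.0% of the 20 in mouse 3 and 58.1% of the 31 in mouse 4. The tdTomato row was 10.9 times higher in mouse 4 (95% exact binomial interval 10.7 to 11.1), and Pkd2l1, the channel gene that marks CSF-cNs, differed little (ratio 1.04, 1.03 to 1.05). Such intervals cover the counting error of reads only, not the capture and copying of RNA before sequencing. They compare 2 libraries, not conditions. Most other CSF-cN markers were higher in mouse 3, among them Pkd1l2 (108 and 47.9 CPM in mice 3 and 4). Gata2 (24.2 and 5.65 CPM), Tal2 (20.1 and 5.69 CPM), Gata3, Espn and Myo3b were too. Tal1 was higher in mouse 4 (10.8 and 14.8 CPM), and P2rx2 had no count. Of the 11 genes found in mice 3 and 4 alone, 7 were higher in mouse 4 and 4 in mouse 3. Enkur was 35.1 times higher in mouse 4 (21.4 to 61.8), Dnah7a 14.4 times (9.69 to 22.4), Rsph1 11.8 times (9.73 to 14.5) and Tekt4 4.70 times (3.69 to 6.05). Fam183b was 1.56 times higher (1.42 to 1.73), Spag16 2.60 times (2.29 to 2.96) and Dynlrb2 2.41 times (2.00 to 2.91). In the other direction Rsph4a was 2.65 times higher in mouse 3 (2.24 to 3.14), Foxj1 2.05 times (1.5001 to 2.82) and Tekt1 1.26 times (1.06 to 1.504), while for Ak7 the interval of the ratio included equality (1.12, 0.966 to 1.30). Some genes had no count in mouse 3, so their level in mouse 4 was set against 3 counts in mouse 3. This gave 294-fold for Rarres2, 240.0-fold for Dnah6 and 73.1-fold for Hydin. These values leave out the counting error of mouse 4 and are not bounds. The ratios of genes of the same axoneme thus lay on both sides of equality.

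Because counts of these libraries grow with transcript length, levels of different genes were compared per kb of exonic length. In mouse 4, Fam183b stood highest at 21.5 CPM per kb, followed by Mia (12.6), Tppp3 (12.2), Rsph1 (11.0) and Tmem212 (10.9). Dynlrb2 and Ccdc153 followed at 8.08 and 7.78 CPM per kb. The long axonemal genes had far lower values, with Dnah6 at 0.630, Dnah12 at 0.201, Hydin at 0.141 and Dnah11 at 0.138 CPM per kb. Their exonic lengths were 13247, 12009, 18037 and 14458 bases, against 567 bases for Fam183b. Whether the reads covered such long transcripts evenly was not tested, so these values need not reflect transcript numbers. Foxj1 was at 0.268 CPM per kb in mouse 4 and at 0.548 in mouse 3. In mouse 3 the order was headed by Tppp3 (320 CPM per kb), Fam183b (13.7) and Ift88 (8.65). Exonic length counts all annotated exons of a gene, so these values are low for genes with many alternative exons.

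**Figure D4:**
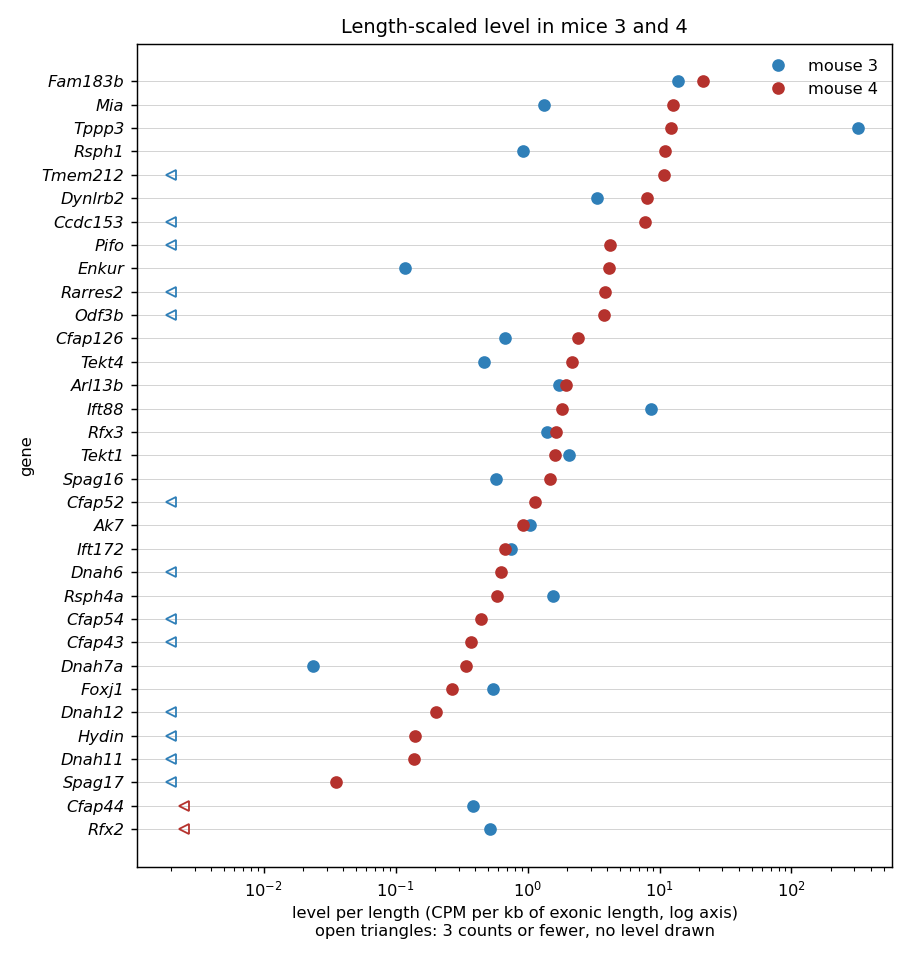
Level per length (horizontal axis, CPM per kb of exonic length, log axis) of the genes with more than 3 counts in mouse 3 or mouse 4 (rows, ordered by mouse 4). Points are single libraries and open triangles mark 3 counts or fewer; in mouse 4 Fam183b is highest at 21.5 and Spag17 is lowest of the points drawn.

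The level of each gene was tested against 10 CPM with edgeR's quasi-likelihood test over all 4 libraries, with Benjamini-Hochberg adjustment over 18522 genes. Of the 34 tested genes, 1 was called above 10 CPM, Tppp3 (log2 level relative to 10 CPM 4.63, SE 0.51, adjusted p = 3.3e-04), where 36.7% of all tested genes were called. The call was lost with limma-voom, whose mean is one of logs (adjusted p = 0.086), and with limma on the deposited log2 values (adjusted p = 0.088). Ift88 (0.93, SE 0.40, adjusted p = 0.13), Rfx3 (0.34, SE 0.75, adjusted p = 0.71) and Arl13b (0.10, SE 0.39, adjusted p = 0.84) were not separated from 10 CPM. Against 1 CPM, 5 of the 34 were called above (Tppp3, Ift88, Arl13b, Rfx3 and Ift172), where 59.1% of all tested genes were. The median log2 level of the 34 genes was -2.46, against -0.07 over all tested genes. edgeR called 0 of the 34 below 10 CPM, and 0 at an unadjusted p under 0.05, where it called 0.664% of all tested genes below. limma-voom called 23 of the 34 below 10 CPM, where it called 33.3% of all tested genes below, and DESeq2 called 2 (Ccno and Spag17) with no adjusted p for 20, where it called 11.0% of all tested genes below. The edgeR model takes the mean on the count scale, so a gene such as Ccdc153 with 1 high library has a wide error (log2 level -1.33, SE 2.13, adjusted p = 0.61). Without mice 1 and 2, whose transgene counts were few, an alternative chosen after seeing the data, Tppp3 alone was again called above 10 CPM and 0 genes below.

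**Figure D5:**
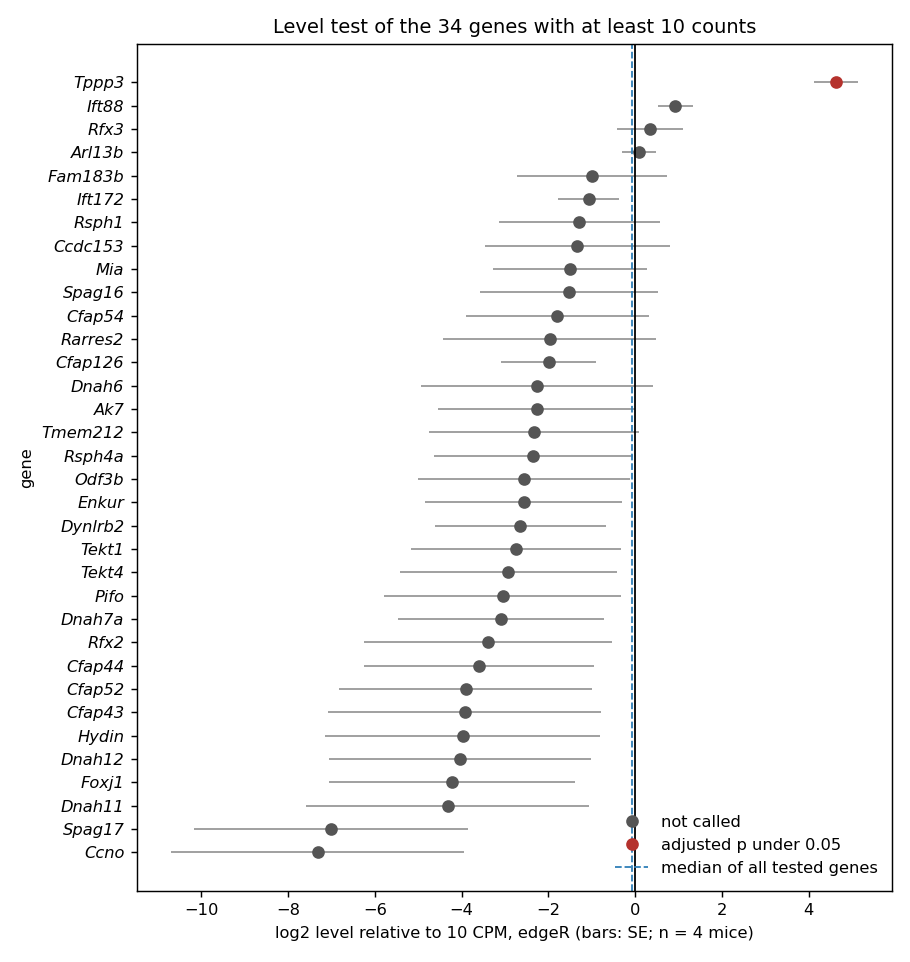
Log2 level relative to 10 CPM from edgeR's model (horizontal axis, bars are SE, n = 4 mice) for the 34 tested genes (rows). Tppp3 at 4.63 is the one gene past an adjusted p of 0.05; the dashed line is the median of all tested genes at -0.07.

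Further genes of the same pathways were examined from fixed lists. Most transport and sorting genes had more than 3 counts in each library: 13, 13, 14 and 14 of 14 genes of intraflagellar transport complex B, 6, 6, 6 and 5 of 6 of complex A, 7, 6, 7 and 7 of 8 ciliary motor genes and 7, 8, 8 and 9 of 9 BBSome genes. The shares of all tested genes with more than 3 counts were 76.9%, 75.8%, 87.2% and 81.6%. Several shares of these lists, such as those of the motor genes, were near these values. Of 14 further genes of intraflagellar transport complex B, 8 were called above 10 CPM by edgeR (36.7% of all tested genes), among them Ift52 (60.5, 56.2, 46.0 and 63.4 CPM; adjusted p = 4.8e-06) and Ift46 (40.05, 16.3, 58.3 and 35.0 CPM; adjusted p = 7.7e-04). Cluap1 (19.3, 27.9, 35.0 and 33.96 CPM) and Ttc30b (19.2, 28.1, 49.7 and 18.3 CPM) were called too. Of 8 tested BBSome genes, which sort ciliary membrane proteins, 6 were called, where 36.7% of all tested genes were. Among them were Bbip1 (51.9, 60.8, 62.4 and 35.2 CPM) and Bbs9 (38.8, 51.5, 58.2 and 50.1 CPM). Bbs4 (34.7, 17.0, 29.6 and 49.5 CPM) and Arl6 (54.1, 6.71, 74.9 and 12.7 CPM) were also called, Arl6 with mice 1 and 3 high. The BBSome count was 3 without mouse 3, 4 without mouse 1, 4 without mouse 4 and 5 without TMM. It was 4 with DESeq2 and 4 with limma-voom, where these called 33.2% and 35.9% of all tested genes. The complex B count was 6 without mouse 3 and 6 without mouse 4. The kinesin subunits Kif3a (29.4, 23.6, 118 and 26.1 CPM) and Kifap3 (59.3, 8.54, 86.5 and 37.4 CPM) were the 2 called of 7 tested ciliary motor genes. Kif3b (26.0, 25.6, 8.46 and 6.47 CPM) and Wdr60 (4.57, 17.6, 14.5 and 19.2 CPM) were not called. None of 6 genes of intraflagellar transport complex A was called by edgeR, limma-voom or DESeq2, and 0 passed an unadjusted p of 0.05 with edgeR. Wdr35 was at 6.11, 10.03, 40.1 and 22.9 CPM, and it was called without mice 1 and 2. Ttc21b (15.4, 14.5, 11.1 and 12.8 CPM), Ift43 (8.17, 5.38, 16.2 and 10.4 CPM) and Ift140 (11.3, 1.42, 8.26 and 9.66 CPM) lay around the reference level.

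Of 14 tested genes of the transition zone, the gate at the ciliary base, 2 were called above 10 CPM, where 36.7% of all tested genes were. These were B9d2 (25.6, 24.4, 21.4 and 17.8 CPM; adjusted p = 0.0056) and Ahi1 (12.5, 6.999, 166 and 154 CPM; adjusted p = 0.0021). The high libraries of Ahi1 were those in which the CSF-cN markers were high (20.3, 12.9, 941 and 846 CPM summed), and their part in the level of Ahi1 was not tested. limma-voom and DESeq2 each called 1 of the 14 above 10 CPM, against 35.9% and 33.2% of all tested genes, and edgeR called 1 without mice 1 and 2. Cep290 (8.53, 13.3, 25.5 and 18.3 CPM) and Tctn3 (22.6, 6.47, 20.6 and 6.59 CPM) were not called. Of 8 tested genes of primary cilium signalling, edgeR called 0 above or below and 0 at an unadjusted p under 0.05. limma-voom called 4 of these below 10 CPM, and DESeq2 called 1 below with no adjusted p for 2, where the shares of all tested genes were 33.3% and 11.0%. Inpp5e (16.0, 28.4, 5.63 and 6.14 CPM) and the Hedgehog receptor gene Smo (11.8, 17.0, 6.98 and 13.4 CPM) had the highest mean CPM of this list, followed by Sufu (2.26, 9.70, 3.92 and 5.68 CPM) and Ptch1 (0.1204, 5.85, 5.55 and 0 CPM). The Hedgehog effector genes Gli1, Gli2 and Gli3, named after their values were seen, had no count in any library.

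The wider set of motile axoneme and dynein assembly genes was close to the axonemal genes described above. Of 47 genes listed, 45 were matched by name and 41 tested, and 1 was called above 10 CPM by edgeR, Rsph3a (18.8, 18.2, 25.6 and 21.7 CPM; adjusted p = 0.0095), where 36.7% of all tested genes were. The count was 0 without mouse 3, 2 without mouse 2 and 3 without mice 1 and 2. edgeR called 0 below 10 CPM. DESeq2 called 0 above and 6 below with no adjusted p for 14, and limma-voom called 1 above and 24 below. The shares of all tested genes called below were 11.0% with DESeq2 and 33.3% with limma-voom. Rsph9, a further spoke head gene, was at 0, 0.0107, 23.8 and 32.0 CPM with the same libraries high as for Rsph1. Dnaaf2, a dynein assembly factor gene, was at 16.6, 8.12, 33.5 and 17.6 CPM, and Nme7 at 16.9, 10.5, 12.8 and 12.6 CPM. The list had a median log2 level of -2.73. In each library 16, 15, 31 and 36 of the 45 genes had more than 3 counts. For all tested genes these shares were 76.9%, 75.8%, 87.2% and 81.6%. The list was near that share in mouse 4 and below it in mice 1, 2 and 3.

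Further multiciliation factors gave a divided list. The cell cycle factor genes E2f4 (31.5, 30.3, 37.9 and 30.6 CPM), E2f5 (18.1, 17.1, 35.9 and 20.6 CPM) and Tfdp1 (32.9, 17.3, 37.4 and 47.5 CPM) and the centriole gene Cep152 (48.4, 60.7, 16.7 and 53.5 CPM) were called above 10 CPM, 4 of 10 tested. That share of 40.0% is near the 36.7% of all tested genes. These 4 genes also serve dividing cells. Trp73, Deup1, Cdc20b and Foxn4, factors of multiciliated cells, had no count in any library, and Myb had 431 counts in mouse 4 alone (4.80 CPM). These 5 genes were named after their values were seen.

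Other ependymal markers outside the list were also highest in mice 3 and 4 in several cases. Fam216b had 1404 counts in mouse 4 and none elsewhere (15.6 CPM). Vim, an intermediate filament gene of ependymal and other cells, was at 2.67, 4.01, 15.5 and 34.9 CPM. Sox2 was at 0.00926, 0.0107, 6.12 and 3.50 CPM and Cd24a at 0, 0.128, 4.39 and 8.40 CPM, while Sox9 had 148 counts in mouse 4 alone (1.65 CPM). These 3 genes were named after their values were seen. Gfap took another order (3.91, 23.4, 7.79 and 0 CPM), and Morn2 was present in every library (7.50, 4.57, 10.1 and 11.2 CPM). Prom1 (0, 1, 0 and 2 counts), Calml4 (0, 4, 0 and 1) and Sntn (0, 5, 0 and 1) had few counts in any library. They were also named after their values were seen. Of the 15 genes of this list, 3, 8, 10 and 9 had more than 3 counts in mice 1, 2, 3 and 4. For all tested genes these shares were 76.9%, 75.8%, 87.2% and 81.6%, and the list was below them in each library. edgeR called 0 of 12 tested genes of this list, with 0 above and 1 below at an unadjusted p under 0.05. limma-voom called 8 below, and DESeq2 called 1 below with no adjusted p for 4, where the shares of all tested genes were 33.3% and 11.0%. Without mice 1 and 2 edgeR called 1 above.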

How the data were processed

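Polyadenylated RNA of 50 sorted cells per mouse was copied with the Smart-Seq v4 kit (11 PCR cycles) and made into libraries with Nextera XT, per the labels' protocols, so reads carry neither strand nor molecular identifiers. The authors deposited a table of gene counts, with 2 runs per mouse, and a table of log2 values. FastQC, Trim Galore, STAR, RSEM and DESeq2 with the build mm10 are named in the submitters' processing notes, with no versions. Column numbers were matched to mouse numbers by name.

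Counts of both runs were summed per mouse. CPM used TMM scaling in edgeR 4.0.16 (R 4.3.3). Genes with at least 10 counts in total (18522) were tested against 10 CPM with an intercept-only quasi-likelihood model, the F statistic being computed from deviances, with Benjamini-Hochberg adjustment. The procedure was tested on simulated data. Each sample is 1 animal, so the spread is that between mice. limma 3.58.1 and DESeq2 1.42.0 gave alternatives. Ratios between libraries have exact binomial 95% intervals. Exonic lengths are from GENCODE M21 and promoters from RefSeq (GRCm38.p6).

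The genes and lists were chosen with earlier results of these data known. All 38 genes are named, and of every other list the 4 with the highest mean CPM, with exceptions stated. Lists of other cell types are given as sums, apart from choroid plexus markers and single astrocyte and CSF-cN genes. Of the other lists' genes, 2 had no matching row.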

Additional observations from a re-analysis of the deposited data

Results flagged for a closer look

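Of 36 genes of the list with a count in any library, 19 had 1 library that stood apart from the other 3 by Dixon's criterion on log2(CPM + 1). Of the 34 genes with at least 10 counts this held for 18, and of all 18522 such genes for 20.0%. The usual chance rate of about 1 in 20 does not apply to these genes: 6 of the 19 had no count in the other 3 libraries, which fixes the criterion at its maximum, and for Dnah5 it rests on 1 count. The values are a description. In 15 genes the library was that of mouse 4. Among markers and other axonemal genes these were Ccdc153 (15.8 CPM in mouse 4), Rarres2 (10.2), Tmem212 (7.80), Odf3b (6.73), Enkur (6.51), Pifo (4.78), Cfap52 (2.63) and Cfap43 (2.62). The dynein genes were Dnah6 (8.35 CPM in mouse 4), Dnah7a (4.35), Dnah12 (2.42), Dnah11 (1.99) and Dnah5 (0.0111, a single count), and the central pair genes were Hydin (2.54) and Spag17 (0.301). In mouse 3, Rfx2 (3.80 CPM) and Cfap44 (3.26 CPM) stood above the other libraries. In mouse 1, Rfx3 (0.278 CPM) stood below and Ccno (0.250 CPM) above. These genes share their libraries and are not independent of each other.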

How the results depend on the processing

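With other settings, the 1 gene of the list called above 10 CPM became 0 with limma-voom and 0 with limma on the deposited log2 values, and 5 against 1 CPM. The 0 called below became 2 with no count filter, 2 with DESeq2, 23 with limma-voom and 24 with limma on the log2 values. Of all tested genes, 10954 were called above 1 CPM. The 123 called below 10 CPM became 2485 with no filter, 0 with at least 1 CPM in 2 libraries, 2041 with DESeq2, 6164 with limma-voom, 6064 on the log2 values, 30 and 50 with run 1 or run 2 only, 6 against 1 CPM, 0 when any 1 mouse was left out and 0 without mice 1 and 2. Tppp3 kept its edgeR call when any 1 mouse was left out. Signs changed for Rfx3 (-0.97 with limma-voom, -0.72 on the log2 values), Fam183b (0.0602 without mice 1 and 2) and Arl13b (-0.0305 without mice 1 and 2, and -0.0746 to 0.174 when 1 mouse was left out), none of them called. The cause was not tested. No paired analysis was possible because the mice form 1 group. Dnah5, Dnah9, Mcidas and Gmnc had under 10 counts and were not tested, and under 3 counts a gene was not detectable at this depth.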
